A study of Bos grunniens and Bos grunniens x Bos taurus with 2 samples.

Results

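Integrins and laminins are the receptors and one of the ligands by which cells hold on to basement membranes. All features whose gene symbol names an integrin alpha or beta subunit (*ITGA* or *ITGB* with a suffix) or a laminin alpha, beta or gamma chain (*LAMA*, *LAMB* or *LAMC* with a number) were taken from the annotation of the deposited count matrices. The pattern matched 36 of 26961 features. These were 16 integrin alpha subunits, 6 integrin beta subunits, 5 laminin alpha chains, 3 laminin beta chains and 3 laminin gamma chains. The other 3 matches are not subunits: *ITGB1BP1* and *ITGB1BP2* encode proteins that bind the integrin beta-1 tail, and *ITGBL1* encodes a secreted protein with integrin-like repeats. No feature carried the symbol *ITGB1*, *ITGB3*, *ITGA8* or *ITGAX*. The identifier ENSBGRG00000018954 is described as integrin beta-1 in the study's gene descriptions, and its values are given beside those of its partners without counting it as a member.

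The cells came from single-cell RNA sequencing of testis. One 10x library was made from a sexually mature yak (*Bos grunniens*) and one from a sexually mature cattle-yak (*Bos grunniens* x *Bos taurus*), the interspecific hybrid whose males are sterile. The frozen tissue was thawed, cut up and digested with collagenase, hyaluronidase and trypsin before the cells were captured, so the matrix proteins themselves were dissolved and only RNA is described. Each group is therefore 1 library, the labels name no further animal, treatment or genotype, and no test between the crosses was possible. Every interval below covers counting error within a library only. The labels describe the material as germ cells, but germ-like cells made up 13.9% of the 10324 yak cells and 1.51% of the 7092 cattle-yak cells kept for analysis. The kept yak cells held 36256997 unique molecular identifiers (UMIs, counted cDNA molecules) with a median of 2445 per cell, and the kept cattle-yak cells held 26264974 with a median of 2994. Mitochondrial features took 14.2% and 18.9% of these UMIs, and nuclear rRNA features 10.1% and 16.6%. The libraries shared 24 cell barcodes.

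An integrin is a pair of 1 alpha and 1 beta subunit at the cell surface, and the pair decides the ligand: alpha-6 with beta-1 or beta-4 and alpha-3 or alpha-7 with beta-1 bind laminin, alpha-1 and alpha-2 with beta-1 bind collagen, alpha-5 with beta-1 and the alpha-V pairs bind fibronectin and related proteins, and the beta-2 and beta-7 pairs serve leukocyte adhesion. A laminin is a trimer of 1 alpha, 1 beta and 1 gamma chain, and its alpha chain sets which receptors it meets. In the testis, laminins lie in the basement membrane around the seminiferous tubule, around vessels and around smooth muscle, while alpha-6 integrin is a known surface marker of spermatogonial stem cells.

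Cells were clustered without the members and their partner genes, and clusters were named from marker lists that hold no member. A cluster stayed unnamed, and out of the classes below, when it met no list or when another list had as many enriched genes or more of the 10 leading genes. The germ-like class of the yak also holds 71 barcodes that the authors typed as germ cells and that lay in other clusters. The classes were T/NK-like, macrophage-like, endothelial (EC-like), lymphatic EC-like, muscle (MC-like), peritubular-like, stromal-like and germ-like cells in both libraries, and pericyte-like cells in the cattle-yak library. The peritubular-like class rests on a rule added after the clusters were seen, which set the muscle and stromal lists aside for such a cluster. No cluster could be named Sertoli-like or Leydig-like, so these cells are not described as classes of their own. *CYP11A1*, a gene of the Leydig list, was among the 10 leading genes of the peritubular-like cluster of both libraries. It also counted for the peritubular list. Levels are given as CPM, the count of a gene per 1000000 UMIs of a class, always for 1 gene across classes, because how well different genes are captured is unknown. A member was called higher in a class when its level, with 1 CPM added to both sides, was at least 2-fold that of all other kept cells of the library. A share of cells holding a UMI was computed after thinning each cell to 1000 UMIs, since the median depth of the classes ran from 1143 to 5963 UMIs in the yak and from 2388 to 5154 in the cattle-yak. Shallower cells were left out of these shares. This weighs most on yak germ-like cells, where the authors' spermatogonia and spermatids had medians of 979.5 and 906 UMIs.

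Of the 36 members, 29 had at least 50 UMIs in the kept yak cells and 27 in the kept cattle-yak cells. Of these, 27 of 29 and 24 of 27 were called higher in at least 1 class, against 67.2% and 66.6% of all genes. In 20 of the 27 members with enough UMIs in both libraries the class with the highest level was the same. A total of 16 members reached 100 CPM in a class of the yak and 12 in a class of the cattle-yak, and these 12 were among the 16. No share of all genes is given for the shared leading class or for the level of 100 CPM, so neither count sets the members apart. The remaining members were detected at low levels or hardly at all. *ITGB6* had 0 UMIs in the kept cells of either library. Taken as up to 3 counts, this allows up to 0.371 CPM in the yak T/NK-like cells, the class with most UMIs. *ITGA11*, *ITGB1BP2* and *LAMB3* had 1 to 13 UMIs per library. *ITGA10* had 28 UMIs in each library and *ITGAM* 35 and 6, while *ITGAD* (155 and 12 UMIs) and *ITGB4* (256 and 46) were under the limit in the cattle-yak library alone.

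**Figure D1:**
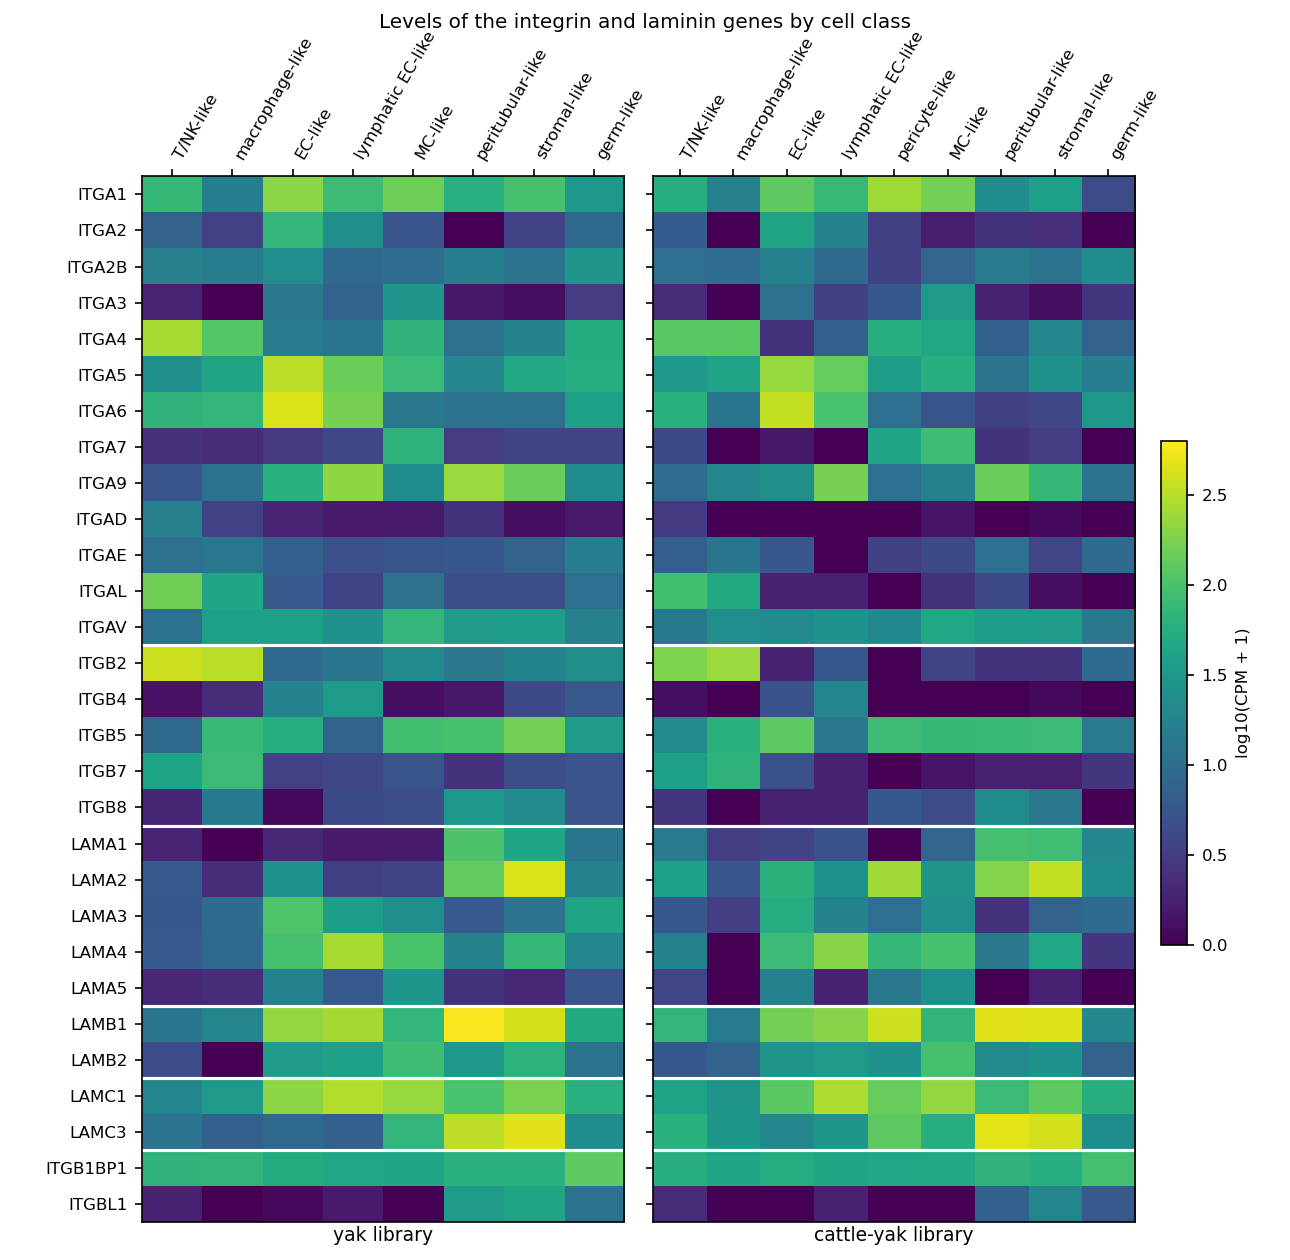
Each row is 1 of the 29 members with at least 50 UMIs in the kept yak cells, ordered by family, and each column a cell class of the yak (left) or cattle-yak (right) library, with colour giving log10(CPM + 1) of the summed counts. Bright cells group by class: *ITGB2*, *ITGA4* and *ITGAL* in T/NK-like cells, *ITGA5* and *ITGA6* in EC-like cells, *LAMA4* and *LAMC1* in lymphatic EC-like cells, and *LAMA2*, *LAMB1* and *LAMC3* in stromal-like and peritubular-like cells. *LAMA2* is also bright in the pericyte-like column of the cattle-yak.

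The leukocyte integrins stood at their highest in the T/NK-like and macrophage-like cells. In the yak T/NK-like cells, 5 of 29 members were called higher (*ITGA4*, *ITGAD*, *ITGAL*, *ITGB2* and *ITGB7*), or 17.2%, where 7.56% of all 12795 genes tested were. In the cattle-yak T/NK-like cells it was 4 of 27, against 7.37% of 11157 genes. *ITGB2*, the beta subunit shared by leukocyte integrins such as LFA-1, was at 372 CPM (95% Poisson interval 359 to 386) in yak T/NK-like cells and 326 CPM (287 to 369) in yak macrophage-like cells. Outside these it was at most 23.6 CPM in any yak class. In the cattle-yak *ITGB2* was at 238 CPM (195 to 288) in macrophage-like and 179 CPM (165 to 194) in T/NK-like cells, so the order of these neighbours was turned, with intervals that did not overlap in the cattle-yak and overlapped in the yak. Without the 2 cattle-yak T/NK-like clusters of under 200 cells, described below, the T/NK-like level was 223 CPM (205 to 242), and the intervals overlapped. A UMI of *ITGB2* was found in 31.0% of thinned yak T/NK-like cells and 17.8% of cattle-yak ones (50.5% and 34.6% without thinning), against 0.634% of yak EC-like cells and 0 of 709 cattle-yak EC-like cells.

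The alpha subunits differed in how they spread over the leukocytes. *ITGAL*, the alpha subunit of LFA-1, which binds ICAMs, was at 155 CPM (147 to 164) in yak T/NK-like cells and 44.4 CPM in macrophage-like cells, with 88.8 CPM and 49.5 CPM in the cattle-yak. It was seen in 14.2% and 9.50% of thinned T/NK-like cells and in 0.350% of yak and 0 of 2333 cattle-yak stromal-like cells, which allows up to 0.129%. *ITGA4*, the alpha subunit of the VCAM-1 receptors, was at 269 CPM (258 to 281) in yak T/NK-like cells and 115 CPM (93 to 142) in macrophage-like cells. In the cattle-yak the levels of *ITGA4* were 117 CPM (106 to 129) and 121 CPM (91.2 to 158), which did not differ beyond their intervals. Without the small cattle-yak T/NK-like clusters the former was 140 CPM (125 to 155). *ITGA4* was also measured in MC-like cells, at 64.7 and 48.0 CPM. *ITGB7*, a partner of alpha-4 and alpha-E, was highest in macrophage-like cells, at 79.9 CPM (61.4 to 102) in the yak and 65.2 CPM (43.7 to 93.7) in the cattle-yak, and at 40.7 and 37.6 CPM in T/NK-like cells. In macrophage-like cells 2 of 29 yak members were called higher, against 8.21% of all genes, and 5 of 27 in the cattle-yak, against 10.1%.

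Within the T/NK-like cells the integrin genes differed between clusters. The yak clusters are named here by their leading genes: a U3 and *CD101* cluster of 511 cells, a *TRDC* and *IL2RB* cluster of 1107 cells, an *EOMES* and *GZMM* cluster of 841 cells and a *CTLA4* and *IL7R* cluster of 1141 cells. *ITGA6*, a laminin receptor subunit, was at 130 CPM in the U3 and *TRDC* clusters (108 to 154 and 116 to 146), at 32.9 CPM (24.8 to 42.8) in the *EOMES* cluster and at 10.1 CPM (6.69 to 14.8) in the *CTLA4* cluster. The cattle-yak clusters showed the same order, with *ITGA6* at 132 CPM (111 to 155) in the *CCL5* and *NKG7* cluster, 19.8 CPM (9.87 to 35.4) in the *EOMES* and *GZMM* cluster and 6.88 CPM (2.53 to 15.0) in the *IL7R* and *ICOS* cluster. *ITGAD*, a beta-2 partner, followed a like order in the yak, from 42.2 CPM (30.4 to 57.1) and 29.1 CPM down to 6.58 and 3.01 CPM, and was at 5.60 CPM or less in the 3 cattle-yak clusters. *ITGAL* did not: it was highest in the *EOMES* cluster of both libraries, at 238 CPM (215 to 262) in the yak and 155 CPM (124 to 191) in the cattle-yak. Among these larger clusters the *CTLA4* or *IL7R* clusters held the lowest *ITGB2*, at 250 CPM (232 to 270) and 122 CPM (99.5 to 147). The described integrin beta-1 feature, ENSBGRG00000018954, ran from 278 CPM in the U3 cluster to 80.8 CPM in the *CTLA4* cluster.

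**Figure D2:**
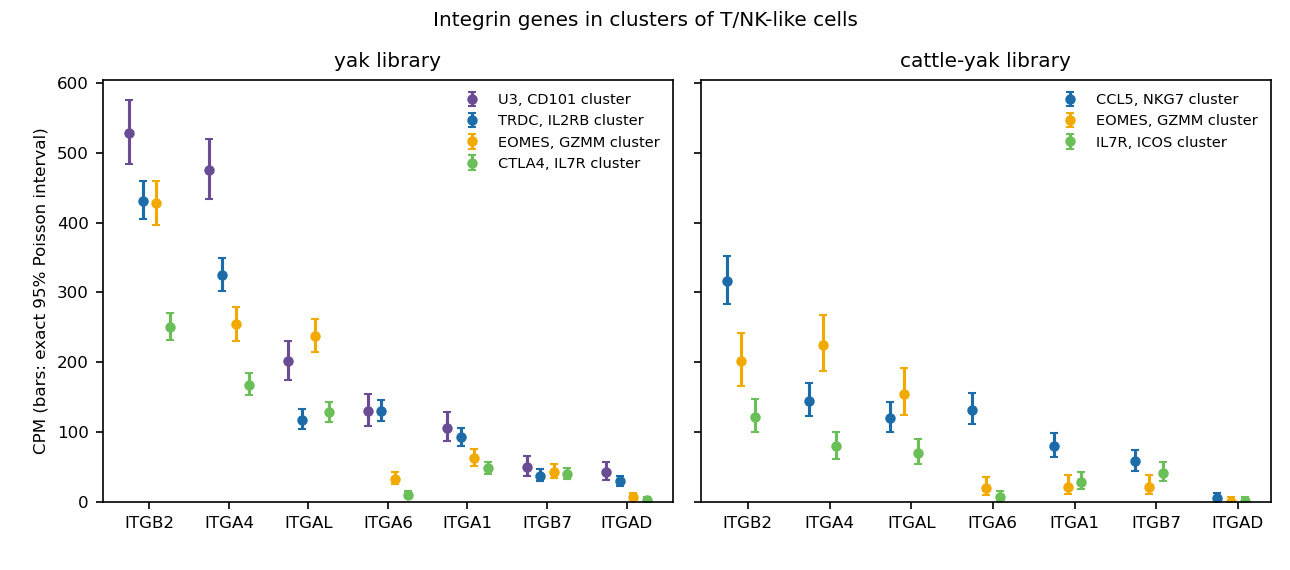
Points give CPM of 7 integrin genes in 4 T/NK-like clusters of the yak and 3 of the cattle-yak library, with bars for exact 95% Poisson intervals; clusters are labelled by leading genes and clusters under 200 cells are not drawn. *ITGA6* runs from 130 CPM to 10.1 CPM over the yak clusters and from 132 CPM to 6.88 CPM over the cattle-yak clusters. Its bars overlap between the U3 and *TRDC* clusters of the yak and between the *EOMES* and *IL7R* clusters of the cattle-yak.

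The EC-like cells carried the most integrin alpha RNA of any class, 1181 CPM over the 16 genes in the yak and 827 CPM in the cattle-yak. Called higher were 6 of 29 yak members (*ITGA2*, *ITGA5*, *ITGA6*, *ITGB4*, *LAMA3* and *LAMA5*), against 7.25% of all genes, and 4 of 27 cattle-yak members (*ITGA2*, *ITGA5*, *ITGA6* and *LAMA3*), against 9.32%. *ITGA6* was at 427 CPM (410 to 444) in yak and 345 CPM (327 to 365) in cattle-yak EC-like cells. Lymphatic EC-like cells came next at 169 and 98.1 CPM, and stromal-like cells had 10.2 CPM in the yak. A UMI of *ITGA6* was seen in 31.7% and 24.8% of thinned EC-like cells, against 1.17% and 0.257% of stromal-like cells (74.9% and 63.4% of EC-like cells without thinning). *ITGA5*, the fibronectin receptor's alpha subunit, followed the same order, with 321 CPM (306 to 336) and 231 CPM (216 to 247) in EC-like cells and 147 and 137 CPM in lymphatic EC-like cells. It was seen in 26.2% and 19.3% of thinned EC-like cells and in 0.978% and 0.615% of peritubular-like cells. *ITGA2*, a collagen receptor subunit, had lower counts and the same leading class, at 71.0 and 42.5 CPM. *ITGA1*, the other collagen receptor subunit measured well, was more widespread: 203 CPM (191 to 215) in EC-like and 151 CPM (138 to 164) in MC-like cells of the yak. In the cattle-yak *ITGA1* was highest in the 97 pericyte-like cells, at 249 CPM (203 to 301), then in MC-like cells at 163 CPM and EC-like cells at 130 CPM. *ITGA1* had a UMI in 19.1% of yak and 12.7% of cattle-yak EC-like cells after thinning, and in 0.526% and 1.02% of macrophage-like cells.

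EC-like clusters of 2 kinds were present in both libraries, one led by *BMX* (215 yak and 162 cattle-yak cells) and one led by *SELP* and *CA4* (769 and 590 cells). *ITGA1*, which pairs into a collagen receptor, *LAMA4* and *LAMB1* were higher in the *SELP* cluster. *ITGA1* was at 245 against 72.0 CPM in the yak and at 159 against 30.4 CPM in the cattle-yak, *LAMA4* at 115 against 40.2 CPM and 98.9 against 17.6 CPM, and *LAMB1* at 265 against 96.0 CPM and 193 against 55.0 CPM. *ITGA6* differed the same way but less, at 479 CPM (458 to 500) against 268 CPM (241 to 296) and 364 CPM (343 to 387) against 281 CPM (247 to 319). The *BMX* cluster held more *ITGA5*, with 389 against 298 CPM and 301 against 211 CPM. It also held more *ITGA9*, with 105 against 44.8 CPM and 51.5 against 15.3 CPM, and more *ITGB4*, the beta partner of alpha-6 in hemidesmosomes, with 32.5 against 11.1 CPM and 12.9 against 1.36 CPM. None of the intervals of these pairs overlapped. *LAMA3*, the alpha chain of the laminin of hemidesmosomes, was at 119 CPM (102 to 139) in the *BMX* and 101 CPM (91.5 to 111) in the *SELP* cluster of the yak, where the intervals overlapped, and the cattle-yak levels of 108 CPM (86.8 to 132) against 37.2 CPM (30.5 to 44.8) had intervals that did not. Over all EC-like cells *LAMA3* was at 105 and 53.1 CPM, with a UMI in 9.82% and 5.36% of thinned cells, against 0 of 409 and 0 of 325 peritubular-like cells, which allow up to 0.733% and 0.923%.

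In lymphatic EC-like cells 4 of 29 yak members were called higher (*ITGA9*, *ITGB4*, *LAMA4* and *LAMC1*), against 5.31% of all genes, and 3 of 27 cattle-yak members (*ITGA9*, *LAMA4* and *LAMC1*), against 4.81%. *ITGA9*, a subunit required for lymphatic valves, was at 217 CPM (201 to 233) and 166 CPM (144 to 191). Peritubular-like cells had as much of it, at 237 CPM (216 to 260) and 146 CPM (125 to 168), and both pairs of intervals overlapped. Stromal-like cells followed at 143 CPM (131 to 155) and 73.0 CPM (66.5 to 79.9), and *ITGA9* was also called higher in those of the yak. After thinning, *ITGA9* was seen in 18.6% and 14.3% of lymphatic EC-like cells, in 20.8% and 13.8% of peritubular-like cells and in 0.458% and 0.495% of T/NK-like cells. *LAMA4*, the alpha chain typical of vessel basement membranes, was at 272 CPM (255 to 290) and 197 CPM (173 to 223), with a UMI in 20.5% and 15.6% of cells, against 0.526% of yak and 0 of 98 cattle-yak macrophage-like cells, which allows up to 3.06%. *LAMC1*, the gamma chain of most laminins, was highest in the same cells, at 301 CPM (282 to 320) and 287 CPM (258 to 318), and was at 232 and 223 CPM in MC-like cells. A UMI of *LAMC1* was seen in 24.2% and 21.0% of lymphatic EC-like cells, against 1.77% and 2.15% of T/NK-like cells.

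The MC-like cells, which express smooth muscle genes, held the laminin-binding alpha subunits of muscle. Called higher were 5 of 29 yak members (*ITGA3*, *ITGA7*, *ITGAV*, *LAMA5* and *LAMB2*), against 5.44% of all genes, and 5 of 27 cattle-yak members (*ITGA1*, *ITGA3*, *ITGA7*, *LAMA5* and *LAMB2*), against 6.11%. *ITGA7*, the main laminin receptor subunit of muscle, was at 63.5 CPM (55.1 to 72.7) and 84.6 CPM (76.2 to 93.6). Its next named yak class was the lymphatic EC-like at 2.93 CPM, and its next cattle-yak class the pericyte-like at 43.4 CPM (25.7 to 68.7). Only 264 of the 450 kept yak UMIs of *ITGA7* lay in named classes, and the others lay in unnamed clusters. The yak had no named pericyte-like class, so the next classes of the libraries are not alike. *ITGA3* was at 27.6 and 32.9 CPM, *LAMA5* at 28.5 and 24.6 CPM and *LAMB2*, a beta chain of synaptic and muscle basement membranes, at 84.0 CPM (74.4 to 94.6) and 96.3 CPM (87.4 to 106). The described integrin beta-1 feature, the common partner of these alpha subunits, was also highest in MC-like cells, at 358 CPM (338 to 379) in the yak and 305 CPM (288 to 321) in the cattle-yak. In the pericyte-like cells of the cattle-yak 2 of 27 members, *ITGA1* and *ITGA7*, were called higher, against 5.17% of all genes. The cattle-yak MC-like cells formed 2 clusters of 399 and 446 cells that differed in members: *ITGA5* was at 100 CPM (87.3 to 115) and 15.7 CPM (11 to 21.7), *LAMA4* at 133 and 59.6 CPM, and *ITGA4* at 25.3 CPM (19.0 to 33.0) and 69.2 CPM (58.8 to 80.8). The former of these is led by *FHL5* and *DES*, the latter by *TRPC6*. In the yak, 328 cells of an unnamed cluster with muscle and pericyte markers had *ITGA1* at 420 CPM (391 to 451), above every named yak class.

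Stromal-like and peritubular-like cells held the most laminin RNA per UMI. Over the 11 laminin chains, stromal-like cells held 1677 CPM in the yak and 1514 CPM in the cattle-yak. Peritubular-like cells held 1317 and 1353 CPM, and T/NK-like cells 61.0 and 250 CPM. The cattle-yak pericyte-like cells held 1028 CPM (933 to 1131). In stromal-like cells 9 of 29 yak members were called higher, or 31.0%, against 8.28% of all genes, and 6 of 27 cattle-yak members, or 22.2%, against 6.53%. In peritubular-like cells it was 6 of 29, against 8.32%, and 6 of 27, against 4.88%. *LAMA1*, *LAMB1*, *LAMC3* and *ITGB8* were called in both classes of both libraries.

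*LAMA2*, the alpha chain of muscle and interstitial basement membranes, was at 427 CPM (406 to 448) in yak and 349 CPM (335 to 364) in cattle-yak stromal-like cells. Peritubular-like cells had 132 and 191 CPM. *LAMA2* was at 256 CPM (209 to 309) in the cattle-yak pericyte-like cells, between these classes. It had a UMI in 30.1% and 25.9% of thinned stromal-like cells (59.2% and 45.7% without thinning) and in 0 of 190 and 0 of 98 macrophage-like cells, which allow shares of up to 1.58% and 3.06%. *LAMA1*, the alpha chain of the tubule's laminin, was at 103 CPM (89.5 to 119) in yak peritubular-like and 44.6 CPM (38.1 to 52.0) in yak stromal-like cells. In the cattle-yak its levels were 92.6 CPM (76.6 to 111) and 87.4 CPM (80.3 to 95), which did not differ beyond their intervals. *LAMA1* was seen in 9.54% and 8.62% of thinned peritubular-like cells and in 0 of 947 yak and 0 of 709 cattle-yak EC-like cells, which allow up to 0.317% and 0.423%.

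*LAMB1*, the beta chain of most laminins, was at 597 CPM (563 to 632) in yak peritubular-like and 412 CPM (392 to 434) in yak stromal-like cells. In the cattle-yak the levels of *LAMB1* were 468 CPM (431 to 508) and 462 CPM (445 to 479), with overlapping intervals. A UMI of *LAMB1* was found in 37.9% and 35.7% of thinned peritubular-like cells, against 1.17% and 4.46% of T/NK-like cells. *LAMC3*, a gamma chain of restricted occurrence, was highest in yak stromal-like cells, at 474 CPM (452 to 497), with 332 CPM (306 to 359) in peritubular-like cells. In the cattle-yak the order was turned, with 487 CPM (449 to 527) in peritubular-like and 409 CPM (394 to 425) in stromal-like cells. Shares of thinned cells with *LAMC3* were 34.4% and 32.4% in stromal-like cells, 29.3% and 36.9% in peritubular-like cells and 0.95% and 2.12% in EC-like cells.

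Among the integrins of these cells, *ITGB5*, a vitronectin receptor subunit, was at 164 CPM (151 to 177) in yak stromal-like cells, with 16.1% of thinned cells carrying a UMI. In the cattle-yak it was highest in EC-like cells, at 126 CPM (115 to 138) and 10.3% of cells, with 79.9 CPM in stromal-like cells. Lymphatic EC-like cells had 0.286% and 1.27% of cells with *ITGB5*. *ITGB8*, which takes part in TGF-beta activation, was at 29.8 and 21.4 CPM in peritubular-like cells, and *ITGBL1* at 42.5 and 17.7 CPM in stromal-like cells. *ITGAV*, the alpha partner of *ITGB5* and *ITGB8*, had its highest level in MC-like cells, at 69.3 and 46.7 CPM, and was at 34.9 and 33.1 CPM in stromal-like cells. The 4 stromal-like clusters of the cattle-yak differed among themselves, with *LAMB1* from 208 to 652 CPM, *LAMA2* from 183 to 665 CPM and *LAMA1* from 36.2 to 132 CPM, while the yak stromal-like cells formed 1 cluster.

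The make-up of the laminin chains changed from class to class. These are shares of the UMIs of a chain family within a class, so they do not depend on the CPM denominator, but they carry each gene's own capture rate and are compared for 1 gene across classes. *LAMA2* gave 76.9% (95% exact binomial interval 75.0 to 78.7) of the alpha chain UMIs of yak stromal-like cells and 50.9% (46.4 to 55.4) in peritubular-like cells. It gave 10.6% (9.02 to 12.3) in EC-like, 1.75% (0.805 to 3.30, 9 UMIs) in MC-like and 0.743% (0.322 to 1.46, 8 UMIs) in lymphatic EC-like cells. The cattle-yak shares of *LAMA2* were 71.3% (69.7 to 72.9), 64.4% (59.3 to 69.2), 28.9% (25.8 to 32.1), 15.3% (12.9 to 18.0) and 10.5% (7.31 to 14.5). The share was thus higher in the cattle-yak in every one of these classes but the stromal-like. Stromal-like cells made up 8.62% of yak and 34.2% of cattle-yak cells, and the stromal marker *COL1A2* was at 25.6 and 64.4 CPM in EC-like cells. The part of stromal RNA in the *LAMA2* shares of the other classes was not tested. In the cattle-yak pericyte-like cells *LAMA2* gave 73.1% (65.1 to 80.1). *LAMA4* gave 86.2% (83.9 to 88.2) and 80.6% (75.7 to 84.9) of alpha chain UMIs in lymphatic EC-like cells, 64.7% and 53.7% in MC-like cells, 39.5% and 37.7% in EC-like cells and 6.46% and 3.99% in peritubular-like cells. *LAMA1* gave 40.0% (35.7 to 44.5) and 31.1% (26.5 to 36.1) in peritubular-like cells, against 8.04% and 17.9% in stromal-like cells. *LAMA3* gave 43.0% and 24.8% in EC-like cells, and 45.8% (40.1 to 51.5) in yak germ-like cells. *LAMA5* reached 18.1% and 13.9% in MC-like cells.

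**Figure D3:**
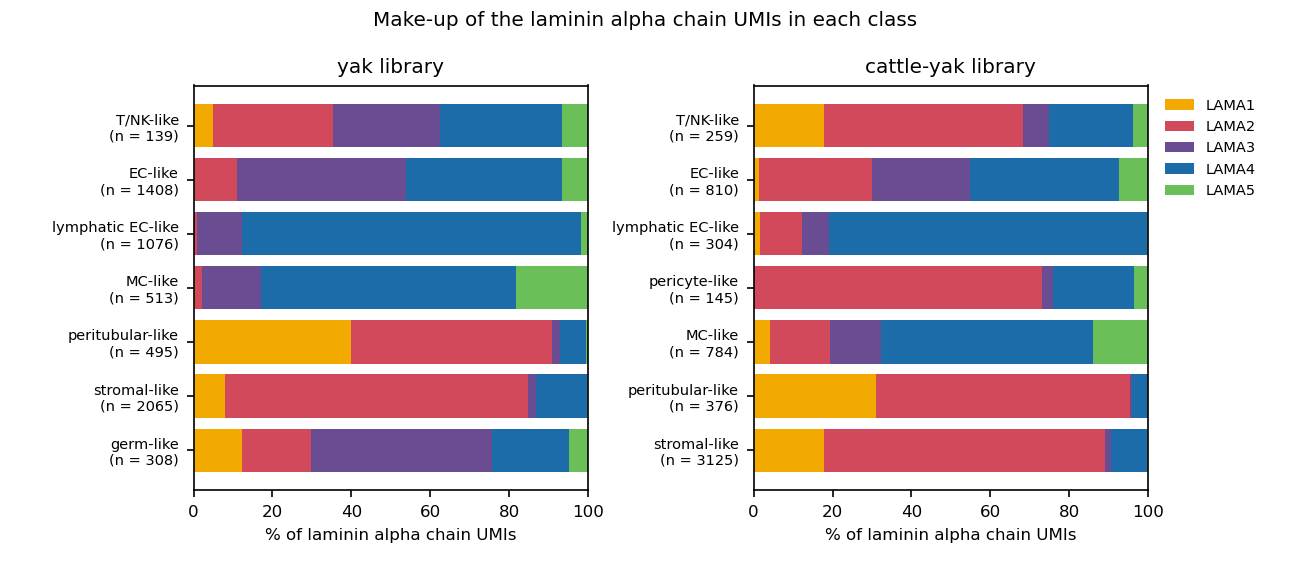
Stacked bars give the percent of laminin alpha chain UMIs from each of the 5 alpha chains in classes with at least 100 such UMIs (n under each class name), in the yak (left) and cattle-yak (right) library. *LAMA2* fills most of the stromal-like bars (76.9% and 71.3%) and of the cattle-yak pericyte-like bar (73.1%). *LAMA4* fills most of the lymphatic EC-like bars (86.2% and 80.6%), while *LAMA1* is widest in peritubular-like cells (40.0% and 31.1%).

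The beta and gamma chains were as uneven. *LAMB2* gave 54.0% (49.6 to 58.4) and 59.1% (55.5 to 62.8) of beta chain UMIs in MC-like cells, 13.1% and 14.4% in EC-like cells and 4.75% and 4.05% in peritubular-like cells, where *LAMB1* gave 95.2% and 95.8%. *LAMC3* gave 77.0% (73.9 to 79.8) and 85.9% (83.1 to 88.4) of gamma chain UMIs in peritubular-like cells and 73.5% and 76.2% in stromal-like cells. In EC-like cells *LAMC3* gave 3.57% and 13.5% and in lymphatic EC-like cells 2.09% and 9.11%, and almost all other gamma chain UMIs were from *LAMC1*.

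The partners of these genes were counted over lists of 18 basement membrane genes, 24 adaptors that link integrins to the cytoskeleton and 23 other ligands, of which 15, 22 and 18 are in the annotation. In yak T/NK-like cells 0 of 15 basement membrane genes were called higher and 15 lower, against 7.56% and 34.5% of all genes. Of 21 adaptors tested 2 were higher there, close to the share of all genes, the parvin *PARVG* at 89.7 CPM and the kinase *PTK2B* at 15.5 CPM, and both were also higher in the cattle-yak T/NK-like cells, at 73.5 and 12.9 CPM. In the yak T/NK-like cells 15 of the 21 adaptors were lower, against 34.5% of all genes. Of 16 other ligands tested in the yak T/NK-like cells, 2 were higher and 14 lower, against 7.56% and 34.5%. In yak EC-like cells 6 of 15 basement membrane genes were higher, against 7.25% of all genes, first the laminin receptor *BCAM* at 85.7 CPM and the type IV collagen chain *COL4A1* at 2145 CPM. In MC-like cells *COL4A6* (107 CPM) and the laminin-like *NTN4* (64.4 CPM) led the 4 basement membrane genes called, and *VCL* (288 CPM) and *TNS1* (965 CPM) led 6 of 21 adaptors, against 5.44% of all genes. The cattle-yak MC-like cells had 2 basement membrane genes and 8 adaptors higher, again led by *VCL*, at 239 CPM, against 6.11%. In peritubular-like cells the collagen chains *COL4A3* (808 and 718 CPM) and *COL4A4* (660 and 1109 CPM) led the 5 yak and 3 cattle-yak basement membrane genes called, against 8.32% and 4.88%. In stromal-like cells 7 and 6 of 15 were called, against 8.28% and 6.53%, led by *NID1*, which bridges laminin and type IV collagen, at 197 and 257 CPM, and by *COL4A5* at 120 and 283 CPM. In germ-like cells none of the 15 basement membrane genes was called higher, against 33% and 31.4% of all genes, and 12 and 14 were lower, against 19.7% and 30.6%.

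Between the libraries, a member was compared within a class where both libraries held at least 50 cells and at least 100 UMIs of the gene together. These ratios compare 1 library with the other, not the crosses. A difference in how many cells of another type lent RNA to a class and a change in RNA per cell cannot be told apart. The median of all genes tested lay at -0.09 to -0.35 (log2, cattle-yak over yak) depending on the class, and at -0.10 to 0.06 when mitochondrial and rRNA UMIs were taken out of the denominators. Members are therefore also given relative to the median of their class. In all, 26 pairs of a member and a class of 105 compared differed at least 2-fold, against 10.4% of all pairs of a gene and a class. Relative to the class median 22 pairs did so, for which no share of all pairs is given. Under other limits on cells, clusterings, denominators, weights and pseudocounts 7 of the 26 stayed past 2-fold in every alternative that gave a value: *ITGA1* in peritubular-like, *ITGA4* in germ-like, *ITGA9*, *ITGB4* and *ITGB5* in EC-like, and *ITGAD* and *LAMA2* in T/NK-like cells. The other 19 fell short in at least 1. *LAMA2* in T/NK-like cells had a value in 11 alternatives. Leaving out the cattle-yak T/NK-like clusters of under 200 cells gave it none, because its UMIs fell below the count minimum.

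The largest differences were those of *LAMA2* in MC-like cells and of integrin alpha genes in germ-like cells. *LAMA2* was at 2.76 CPM (9 UMIs) in yak and 27.1 CPM (120 UMIs) in cattle-yak MC-like cells, a log2 difference of 2.90 and of 3.00 relative to the median. At a clustering resolution of 0.5 the difference was 0.45, which is no call. It was the 1 of 17 members higher there, against 2.18% of all genes, and 0 were lower, against 2.20%. *COL1A2*, a stromal marker, was at 115 and 394 CPM in the same cells, while the summed level of the 12 stromal markers, 1 of them at 0 in the yak and none in the cattle-yak, was 2516 and 2161 CPM. Stromal-like cells made up 8.62% of yak and 34.2% of cattle-yak cells. The MC-like classes were not alike in make-up, since the cattle-yak class included the cluster of 446 cells led by *TRPC6*. In the yak, a cluster of 328 cells with *TRPC6* among its leading genes stayed unnamed and outside the class. The parts of stromal RNA and of this make-up in the *LAMA2* difference were not tested.

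In germ-like cells 6 of 10 members were lower in the cattle-yak (*ITGA1*, *ITGA4*, *ITGA5*, *ITGB5*, *LAMA3* and *LAMB1*), against 25.2% of all genes, and 0 were higher, against 4.76%. *ITGA1* was at 29.9 CPM (100 UMIs) in the yak and 3.38 CPM (2 UMIs) in the cattle-yak, a log2 difference of -2.82. *ITGA4* was at 51.4 CPM and 6.76 CPM (4 UMIs), a log2 difference of -2.76. The germ-like cells were not alike: there were 1440 of them with a median of 1143 UMIs in the yak, spermatids included, and 107 with a median of 5154 UMIs in the cattle-yak. Markers of other cells differed beside the members. The 15 T/NK markers summed to 472 CPM in yak germ-like cells (none at 0) and 71.0 CPM in cattle-yak ones (7 at 0), the 15 EC markers to 436 CPM (1 at 0) and 76.1 CPM (6 at 0), and the 12 MC markers to 3019 and 347 CPM (none at 0). Their part in the germ-like differences was not tested. With no limit on genes or UMIs *ITGA5* (0.025) and *LAMA3* (0.60) pointed the other way, as did *ITGB5* (0.014) at a clustering resolution of 0.5. At that resolution and with 15 components *ITGA1* (-0.45 and -0.38) and *LAMB1* (-0.10 and -0.36) did not pass 2-fold.

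In T/NK-like cells 5 of 17 members were higher in the cattle-yak, against 5.79% of all genes, and 3 were lower, against 5.04%. Of the 5, 4 are laminin genes that the other classes carry: *LAMA2* differed by a log2 of 2.64 (5.20 and 37.6 CPM), *LAMB1* by 2.52 (11.1 and 68.6 CPM), *LAMC3* by 2.43 (10.5 and 61.2 CPM) and *LAMC1* by 1.08 (18.3 and 39.9 CPM). The fifth was *ITGB5* at 1.30 (7.67 and 20.4 CPM). *COL1A2* was at 28.6 CPM in yak and 213 CPM in cattle-yak T/NK-like cells, and the 12 stromal markers summed to 153 CPM (1 at 0) and 830 CPM (none at 0). Most of the laminin UMIs lay in the small cattle-yak clusters, one of 140 cells led by cell cycle genes and one of 55 cells in which *COL1A2* reached 1180 CPM. The T/NK markers summed to 1012 and 1201 CPM in these clusters, against 3771 CPM in the class. The stromal markers summed to 1616 and 4823 CPM and the MC markers to 2697 and 2571 CPM, against 830 and 1104 CPM. The markers of both clusters thus went against the T/NK-like name in part. Without both, the log2 difference was 1.28 for *LAMA2*, 0.45 for *LAMB1*, 0.89 for *LAMC3*, -0.22 for *LAMC1* and 0.05 for *ITGB5*, and *COL1A2* was at 54.0 CPM in the 1062 cells left. The yak class kept its own small cluster of 82 cells, so the sides of this comparison were unlike. The laminin chains summed to 222 CPM in that yak cluster, against 61.0 CPM in the yak class.

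The 3 members lower in cattle-yak T/NK-like cells are leukocyte integrins. *ITGAD* was at 15.7 CPM (127 UMIs) and 2.01 CPM (7 UMIs), a log2 difference of -2.47. *ITGA4* differed by -1.20 and *ITGB2* by -1.05, or by -0.99 and -0.84 relative to the median, and by -0.94 and -0.74 without the small clusters. *ITGAL* differed by -0.80 and did not pass 2-fold. The T/NK markers themselves moved the same way, with a sum over 15 genes of 8055 CPM in the yak and 3771 CPM in the cattle-yak and with *CD3D* at 466 and 220 CPM, and their part in the integrin differences was not tested. In macrophage-like cells 2 members could be compared and neither differed 2-fold, against 1.90% of all genes higher and 3.67% lower.

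Among vessel cells, 3 of 19 members were higher in cattle-yak EC-like cells, against 1.82% of all genes, and 2 were lower, against 2.68%. *ITGB5* was at 57.6 CPM (51.6 to 64.2) in the yak and 126 CPM (115 to 138) in the cattle-yak, a log2 difference of 1.12. It was higher in the cattle-yak in both EC-like clusters, at 79.1 and 167 CPM in the *BMX* and 50.6 and 114 CPM in the *SELP* cluster. *LAMA2* differed by 1.22 and *LAMC3* by 1.16, beside *COL1A2* at 25.6 and 64.4 CPM and a stromal marker sum of 189 CPM (2 of 12 at 0) and 253 CPM (none at 0). *ITGB4* differed by -1.81 and *ITGA9* by -1.31, and both were lower in the cattle-yak in each of the EC-like clusters. In lymphatic EC-like cells 0 of 13 members were higher, against 1.18%, and 1, *LAMA3*, was lower by -1.03, against 7.31%, which is -0.68 relative to the median.

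In peritubular-like cells 0 of 10 members were higher, against 1.61% of all genes, and 1 was lower, against 5.22%. This was *ITGA1*, at 59.6 CPM (49.1 to 71.5) in the yak and 22.2 CPM (14.7 to 32.0) in the cattle-yak, a log2 difference of -1.39. *ITGA1* was also lower in cattle-yak stromal-like cells, by -1.34, at 94.9 and 36.8 CPM. In stromal-like cells 0 of 17 members were higher, against 1.30%, and 4 were lower, against 6.56%. The other 3 were *LAMB2* (-1.29, 63.7 and 25.5 CPM), *ITGBL1* (-1.22) and *ITGB5* (-1.03). Relative to the class median *ITGBL1* differed by -0.97 and *ITGB5* by -0.77, so neither passed 2-fold. *LAMA1* differed by 0.95, and by 1.21 relative to the class median. The MC markers, whose own class held *ITGA1* at 151 CPM in the yak, summed to 4000 CPM in yak and 1652 CPM in cattle-yak stromal-like cells, with none of the 12 at 0, and their part was not tested.

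**Figure D4:**
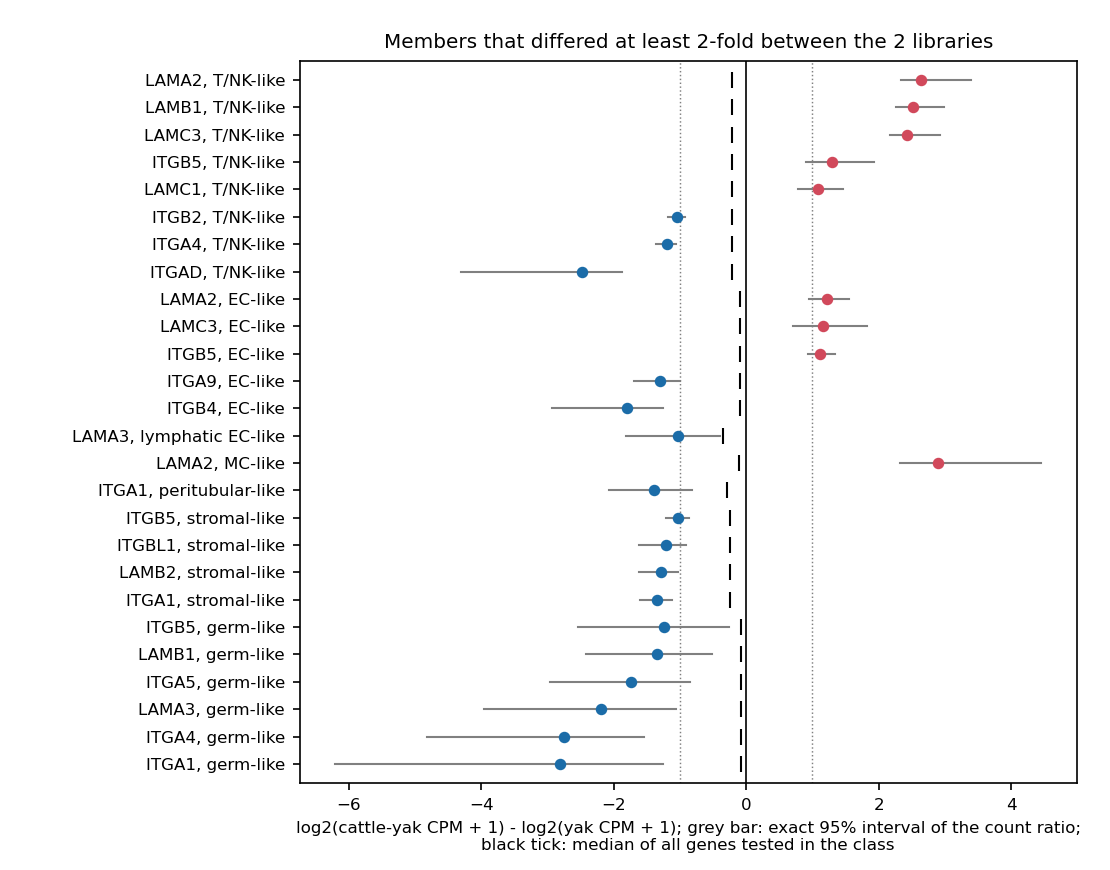
Each point is a member in a class where the libraries differed at least 2-fold, as log2(CPM + 1) of the cattle-yak minus that of the yak (red higher and blue lower in the cattle-yak). Grey bars are exact 95% intervals of the ratio of counts, which take no added CPM, so that a point of few counts can lie outside its bar, and black ticks mark the median of all genes tested in the class. *LAMA2* in MC-like cells and *LAMA2*, *LAMB1* and *LAMC3* in T/NK-like cells lie furthest to the right, and *ITGA1* and *ITGA4* in germ-like cells furthest to the left.

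In germ-like cells the integrin members were low as a group. Over the 22 integrin genes the yak germ-like cells held 350 CPM, the lowest integrin sum of any yak class, and the cattle-yak germ-like cells held 134 CPM. The described integrin beta-1 feature, which these sums leave out, was at 97.4 CPM (87.1 to 109) and 157 CPM (127 to 193). Its lowest yak level was in macrophage-like cells, at 67.3 CPM. The cattle-yak germ-like level was above the stromal-like one of 94.6 CPM and below the EC-like one of 178 CPM. Over the 11 laminin genes the germ-like cells held 232 CPM in the yak and 156 CPM in the cattle-yak. Macrophage-like cells held less laminin RNA, at 74.9 and 85.5 CPM, as did yak T/NK-like cells, at 61.0 CPM. Called higher against other cells were 2 of 29 members in the yak (*ITGAE* and *ITGB1BP1*), where 33% of all genes were, and 1 of 27 in the cattle-yak (*ITGA2B*, at 22.0 CPM from 13 UMIs), where 31.4% were. *ITGB1BP1*, which encodes an inhibitor of beta-1 integrin activation, was at 130 CPM (118 to 143) in yak germ-like cells and between 44.5 and 67.3 CPM in the other yak classes. It was seen in 10.7% of thinned yak germ-like cells and in 12.2% of 98 cattle-yak ones, against 4.14% and 4.76% of MC-like cells. *ITGAE*, best known as the alpha-E subunit of tissue T cells, was at 14.3 CPM in yak germ-like and 9.90 CPM in yak T/NK-like cells.

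The authors' germ cell types of the yak covered 1127 barcodes, all of them kept: 84 spermatogonial stem cells (SSC), 486 spermatogonia (SPG), 72 early and 261 late spermatocytes (Early-SPC and Late-SPC) and 224 spermatids (SPT). The types were made from expression in these same cells, so the levels are a description. Of the 36 members, 22 had at least 10 UMIs over the typed cells. The highest level fell in SSC for 8 of the 22, in SPG for 6, in Early-SPC for 1, in Late-SPC for 3 and in SPT for 4. No share of all genes is given for these counts. SSC held the fewest UMIs of the types, 153082 against 618792 in SPG, and so the least certain levels. The counts therefore do not show that the members favour SSC. The interval of the leading type was apart from that of the next type for 3 members only.

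*ITGA5* was the first of these, at 281 CPM (203 to 378) in SSC and 69.9 CPM (42.1 to 109) in SPT, the next type. *ITGA6*, the known stem cell marker, was at 137 CPM (84.9 to 210) in SSC, 55.2 CPM (30.9 to 91.1) in SPT, 51.7 CPM (35.4 to 73.0) in SPG, 31.6 CPM in Early-SPC and 27.3 CPM in Late-SPC, and the intervals of SSC and SPT overlapped. *ITGA9* was at 91.5 CPM (50 to 153) in SSC and 43.6 CPM (28.8 to 63.5) in SPG, and *LAMB1* at 131 CPM (79.8 to 202) and 105 CPM (81.1 to 134). The described integrin beta-1 feature was at 144 CPM (116 to 177) in SPG and 131 CPM (79.8 to 202) in SSC. It was at 77.3 CPM in Early-SPC, 75.6 CPM in Late-SPC and 36.8 CPM (17.7 to 67.7) in SPT. The barcodes typed SSC went against their label in part. The endothelial gene *PECAM1* was at 1182 CPM (1016 to 1368) in them, at 1090 CPM (1063 to 1117) in EC-like cells and at 160 CPM in SPG, and the germ gene *UCHL1* was at 281 CPM in SSC and 1028 CPM in SPG. The 15 EC markers summed to 2593 CPM in SSC (1 at 0), 562 CPM in SPG (1 at 0) and 4362 CPM in EC-like cells, and the 35 germ markers to 1496 CPM in SSC (7 at 0) and 2831 CPM in SPG (2 at 0). Of the 84 SSC barcodes, 59 lay in a germ-like cluster, 20 in an unnamed cluster and 4 in the *BMX* EC-like cluster. Within the 59 alone, *ITGA5* was at 306 CPM (215 to 424), *ITGA6* at 119 CPM (65.1 to 200) and *PECAM1* at 1217 CPM. The part of endothelial RNA in the SSC levels of *ITGA5* and *ITGA6*, the leading integrins of EC-like cells, was not tested.

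Other members were highest in the later germ cell types. *ITGB1BP1* was at 250 CPM (207 to 299) in Late-SPC and 118 CPM (92.5 to 148) in SPG, the next type, with 35.1 CPM (16.8 to 64.6) in Early-SPC. *LAMA3* was at 155 CPM (111 to 209) in SPT and 38.8 CPM (24.9 to 57.7) in SPG, and was at 13.1, 7.02 and 14.7 CPM in the other 3 types. A UMI of *LAMA3* was seen in 15.3% (8.83 to 24.0) of 98 thinned SPT, 126 shallower ones left out, against 9.82% of EC-like and 4.64% of SPG cells. *ITGA4* was at 88.2 CPM (63.6 to 119) in Late-SPC and 84.7 CPM (53.7 to 127) in SPT, against 42.0 CPM in SPG and 14.0 CPM in Early-SPC. The T/NK markers summed to 1023 CPM in SPT, 739 CPM in SPG, 435 CPM in Late-SPC and 190 CPM in Early-SPC, and their part in the *ITGA4* levels was not tested. *ITGAE* was at 39.9 CPM (24.0 to 62.3, 19 UMIs) in Late-SPC and at 13.1 CPM or less in the other types. Its Late-SPC interval overlapped that of SSC (1.58 to 47.2, 2 UMIs), the next type, and lay above those of SPG, SPT and Early-SPC.

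**Figure D5:**
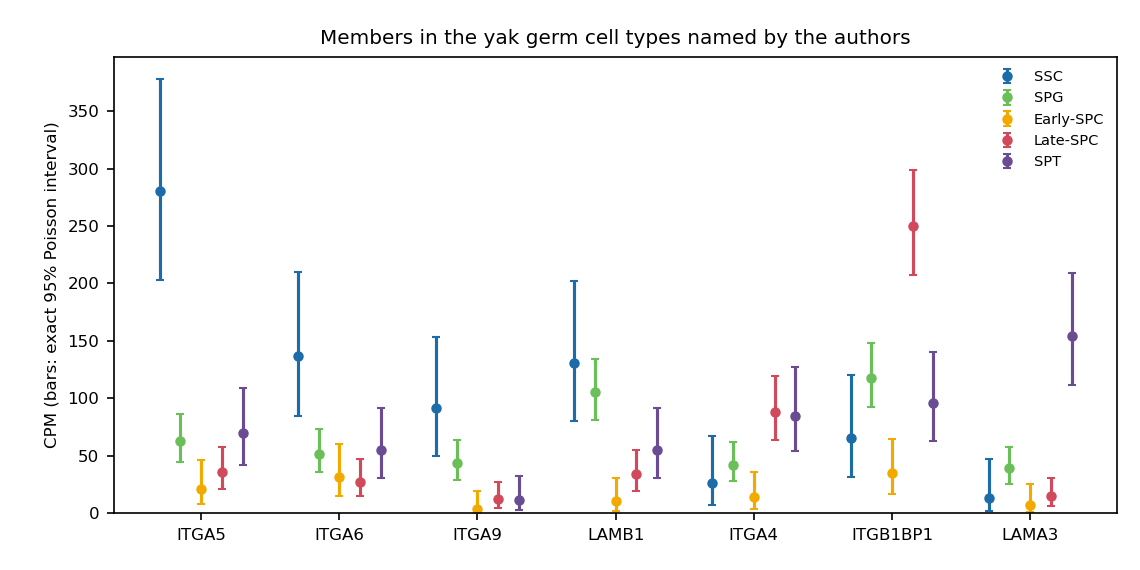
Points give CPM of 7 members in the 5 germ cell types that the authors named in the yak library, with bars for exact 95% Poisson intervals. *ITGA5* is highest in SSC (281 CPM), *ITGB1BP1* in Late-SPC (250 CPM) and *LAMA3* in SPT (155 CPM), and the bars of the other 4 genes overlap between the leading type and the next.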

How the data were processed

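The authors counted UMIs per gene and cell barcode with Cell Ranger (2.1.1 in the submitters' processing notes, 5.0.0 per the file headers) on the yak genome BosGru3.0. The deposited counts are raw and per library, and reads of cattle alleles in the cattle-yak were therefore counted on the yak genome. No RefSeq sequence was used. Barcodes with under 30% mitochondrial UMIs and with genes and UMIs within 2 SD of the library mean were kept, after the study's limits, which left 10324 of 11991 and 7092 of 8930. The study states fewer yak cells after filtering. Cells were normalised to 10000 UMIs and clustered in scanpy 1.11.5 (2000 variable genes, 30 components, 15 neighbours, Leiden resolution 1), with 130 genes left out (members, partners, mitochondrial and rRNA features). A cluster was named when at least 3 genes of a list were enriched 2-fold and seen in 10% of its cells and no other list had as many, or more among the 10 leading genes. Clusters under 50 cells stayed unnamed. A rule for the peritubular list was added after the clusters were seen. That list competed only where at least 3 of its genes, at least 3 muscle genes and *PDGFRA* were enriched. It then took the place of the muscle and stromal lists. Without this rule no cluster is named peritubular-like. Germ cell types are those the authors gave 1127 yak barcodes, which were counted as germ-like wherever they clustered. Scrublet called 0 yak and 251 cattle-yak barcodes as doublets; with 0 calls it had not worked, so no barcode was removed by it and doublets remain.

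Counts were summed per class and given as CPM with exact Poisson or binomial (Clopper-Pearson) intervals at 95%, which cover counting error only. For a 0 the limit printed is 3 counts, which is tighter than the upper end of the exact interval. For *ITGB6* in yak T/NK-like cells these are 0.371 and 0.457 CPM. Log2 differences are on the log2(CPM + 1) scale. Comparisons between classes used genes with at least 50 counts, those between libraries genes with at least 100, and calls were made at 2-fold. With 1 library per group there was no test. The summing and ratios were tested on simulated data. All members could be named (1 is not reported here), those reaching 100 CPM in a class with full values, and of each partner list the 2 genes at each end of the class described. The members and lists were chosen with earlier results of these data known. Alternatives covered the cell filter, clustering, doublet scores, pseudocount, count minimum, fold, weighting of cells, denominator and thinning.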

Additional observations from a re-analysis of the deposited data

Results flagged for a closer look

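For *ITGB5* and *LAMB1* the cattle-yak over yak difference pointed in opposite ways in different classes. With 1 library per group, these oppositions were not tested. *ITGB5* was higher in the cattle-yak in T/NK-like cells (log2 difference 1.30) and EC-like cells (1.12) and lower in stromal-like cells (-1.03) and germ-like cells (-1.23). The stromal-like value was -0.77 relative to the class median, which is no call, and the germ-like value turned to 0.014 at Leiden resolution 0.5. Without the cattle-yak T/NK-like clusters of under 200 cells the T/NK-like difference of *ITGB5* was 0.05, from 20 cattle-yak and 62 yak UMIs, which is below the count minimum of 100. *LAMB1* was higher in the cattle-yak in T/NK-like cells (2.52) and lower in germ-like cells (-1.34), and without those clusters its T/NK-like difference was 0.45. At Leiden resolution 0.5 its germ-like difference was -0.10. The *ITGB5* values rest on 478 cattle-yak and 331 yak UMIs in EC-like cells, 510 and 609 in stromal-like cells, 71 and 62 in T/NK-like cells and 8 and 111 in germ-like cells, and the germ-like *LAMB1* value on 11 and 163.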

How the results depend on the processing

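The 27 yak and 24 cattle-yak members called higher in a class stayed within 1.5 times under every alternative that gives a value (20 to 30 and 16 to 27), as did the 8 germ cell members led by SSC (8 to 10) and the *LAMA2* share of yak stromal-like alpha chain UMIs (76.6% to 78.2%). The 26 pairs that differed between the libraries became 16 under a mitochondrial limit of 20%, 42 at 1.5-fold, 8 at 4-fold, 69 with a count minimum of 10 and 12 with a minimum of 200, which follows from the construction of the last 4. Directions turned for *ITGA5* (0.025) and *LAMA3* (0.60) in germ-like cells and for *LAMC1* in T/NK-like cells (-0.25) with no limit on genes or UMIs. That of *ITGB5* in germ-like cells turned (0.014) at Leiden resolution 0.5. *LAMC1* in T/NK-like cells also turned with the highest 10% of Scrublet scores left out (-0.035). It turned as well without the small cattle-yak T/NK-like clusters (-0.22), where the small yak cluster was kept. At Leiden resolution 0.5 the *LAMA2* difference in MC-like cells was 0.45. The causes were not tested. No paired analysis was possible because each group is 1 library. Values of SSC barcodes and of cattle-yak germ-like cells rest on few UMIs, and differences there may not be detectable at this depth. The alternatives on small cattle-yak T/NK-like clusters, the peritubular rule, SSC barcodes and a germ-like class from clusters alone were chosen after seeing the data. The germ-like class from clusters alone moved no value beyond its interval. Leaving out the small T/NK-like clusters moved 6 results beyond their interval or 1.5 times and reversed 1.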
